A study of Homo sapiens with 12 samples.

Results

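The collagen genes are the human genes whose protein product is a collagen alpha chain, recognised here by gene symbols made of COL, a number, A and a number, with antisense transcripts and pseudogenes left out. Of the 44 such genes in the RefSeq gene table, 41 were read by a probe set with that gene as its only symbol, among 22411 genes measured in all. COL11A2 had 7 such probe sets, COL27A1 had 2 and every other member had 1, and the probe set with the highest mean over the arrays stood for the gene. COL3A1 and COL26A1 were annotated only together with another symbol and COL17A1 had no probe set of its own here, so these 3 genes were not analysed here. The rule uses only gene names, but the collagen genes were taken up with earlier results of these data known.

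The study asked how the transcription factor GLI1 changes gene expression in pancreatic ductal adenocarcinoma cells. SW1990 and PANC-1 are established human lines of that cancer, and their RNA was measured on 12 expression arrays, with 3 arrays for each line and label. The arrays labelled GLI1 are said to come from cells given a GLI1-expressing plasmid with a lipid reagent and are named LIP, LIP-1 and LIP-2 in either line. Those labelled control are named a, b and c in SW1990 and S8, S10 and S11 in PANC-1, and their cells are said to have received the plasmid without an insert in the same way. Both lines were cultured in DMEM with serum, each line is a single established culture, and no source says whether the 3 arrays of a group were grown separately. The p-values below therefore describe the variation among these particular arrays, some or all of which may be technical.

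Collagen chains wind around each other into a helix in which glycine recurs at regular positions, and the type of collagen depends on which chains combine. Fibrillar collagens form the ropes of connective tissue, network-forming type IV chains build basement membranes, and the fibril-associated collagens known as FACITs sit on the surface of fibrils. Pancreatic ductal adenocarcinoma is known for a dense collagen-rich stroma laid down largely by fibroblasts and stellate cells, while the cancer cells themselves are epithelial and also make basement membrane and other collagens. Type IV genes lie in neighbouring pairs that are transcribed away from each other, namely COL4A1 with COL4A2, COL4A3 with COL4A4, and COL4A5 with COL4A6.

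The promoter windows of members on which the results turn are shown here. COL12A1 and COL18A1 stood far higher in PANC-1 and have annotated starts of different make-up, and COL4A5 and COL4A6 share a stretch of theirs. Which starts the cells used was not measured. Each window, taken from RefSeq on GRCh38.p14, runs from 250 bases before an annotated start to 50 bases after it, is printed 5′ to 3′ on the gene's strand, and has motif letters in capitals. COL12A1, chr6:75206004-75206303 on the minus strand, holds 2 GC boxes (GGGCGG or its complement CCGCCC).
COL12A1: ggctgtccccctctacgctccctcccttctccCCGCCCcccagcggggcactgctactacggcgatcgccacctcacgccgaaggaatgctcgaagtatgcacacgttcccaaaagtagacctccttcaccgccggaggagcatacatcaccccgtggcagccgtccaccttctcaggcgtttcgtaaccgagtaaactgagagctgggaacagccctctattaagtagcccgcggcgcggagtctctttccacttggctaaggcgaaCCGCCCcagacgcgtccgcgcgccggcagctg
COL18A1 has 2 starts in the table. The upstream one, chr21:45404915-45405214 on the plus strand, consists of G and C to 86.7% and holds 9 GC boxes, 2 of which join in a single run of capitals.
COL18A1 upstream: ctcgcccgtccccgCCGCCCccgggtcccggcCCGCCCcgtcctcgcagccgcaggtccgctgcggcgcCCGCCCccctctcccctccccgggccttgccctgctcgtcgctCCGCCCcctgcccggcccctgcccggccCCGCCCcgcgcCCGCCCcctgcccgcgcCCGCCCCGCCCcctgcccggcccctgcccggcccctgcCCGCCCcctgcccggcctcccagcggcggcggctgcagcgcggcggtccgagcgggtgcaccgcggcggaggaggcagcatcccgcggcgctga
The downstream start of COL18A1, chr21:45455272-45455571 on the plus strand, holds a TATA box (TATAAA) and 1 GC box.
COL18A1 downstream: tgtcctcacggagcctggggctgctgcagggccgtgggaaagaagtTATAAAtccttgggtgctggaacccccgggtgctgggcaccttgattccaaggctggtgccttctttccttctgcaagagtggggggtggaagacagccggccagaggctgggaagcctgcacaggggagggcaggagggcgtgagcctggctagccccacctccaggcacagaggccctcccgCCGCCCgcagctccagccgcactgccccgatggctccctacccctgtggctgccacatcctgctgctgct
COL4A5, chrX:108439588-108439887 on the plus strand, and COL4A6, chrX:108439409-108439708 on the minus strand, share 121 bases in opposite orientation, so that the first 2 CCAAT boxes (CCAAT or ATTGG) of each are the same ones read from either strand. Another annotated COL4A6 start, chrX:108438373-108438672 on the minus strand, holds 1 GC box and no CCAAT box. Its window shares no bases with that of COL4A5 and is not printed.
COL4A5: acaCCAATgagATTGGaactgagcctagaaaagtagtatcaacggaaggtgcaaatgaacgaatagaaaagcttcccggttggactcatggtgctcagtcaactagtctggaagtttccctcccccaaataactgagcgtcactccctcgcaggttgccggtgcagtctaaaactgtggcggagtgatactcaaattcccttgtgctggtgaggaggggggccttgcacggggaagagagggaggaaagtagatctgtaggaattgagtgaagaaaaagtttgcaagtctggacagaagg
COL4A6: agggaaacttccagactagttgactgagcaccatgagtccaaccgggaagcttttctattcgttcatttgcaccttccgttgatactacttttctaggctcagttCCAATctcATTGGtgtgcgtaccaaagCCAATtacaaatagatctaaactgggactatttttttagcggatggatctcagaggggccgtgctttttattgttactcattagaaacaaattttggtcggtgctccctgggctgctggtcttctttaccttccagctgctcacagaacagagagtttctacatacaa
The promoter table matched 30 of the 41 members with 42 windows, COL1A1 and COL5A2 not among them. Searched on both strands, the GC box was found in 24 of those 42 windows and in 44.9% of all 34943 windows in the table. The CCAAT box was found in 13 of the 42 and in 34.6% of all, TATAAA in 7 and in 11.6%, and the AP-1 site TGANTCA in 1 (COL10A1) and in 7.72%. The GLI site GACCACCCA was in none of the 42 and in 0.238% of all windows, which says only that these letters are not in these windows. A match describes letters and is no evidence of binding.

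Values are normalized log2 signals, so a difference of 1 is a 2-fold difference, and levels of different genes cannot be set against each other because each probe set has its own brightness. Of the 41 members, 16 lay in the 30% of genes with the lowest signal, and small differences among those carry little weight. GLI1 itself ran against its labels. In SW1990 its mean ± SD over 3 arrays was 6.89 ± 0.12 with the GLI1 label against 11.81 ± 0.04 with the control label, and in PANC-1 it was 7.93 ± 0.15 against 11.50 ± 0.04. All directions below are therefore those of the labels, and which arrays came from cells with more GLI1 cannot be settled from them. The PANC-1 control-labelled array S8 stood apart from the other PANC-1 control arrays, though not in GLI1. Its GLI1 value was 11.46, against 11.50 and 11.54 in S10 and S11 and 7.76 to 8.04 in the PANC-1 arrays labelled GLI1. Over all genes S8 correlated at 0.987 and 0.988 with S10 and S11, which correlated at 0.997 with each other, and at 0.989 to 0.992 with LIP, LIP-1 and LIP-2 of PANC-1. The median of 15 interferon-stimulated genes was 9.33 in S8, 6.88 in S10, 6.30 in S11 and 5.65 to 6.03 in those LIP arrays. A high median was not particular to S8, since it was 10.66 to 10.74 in the SW1990 control arrays and 5.74 to 6.06 in the SW1990 arrays labelled GLI1. In SW1990, the array LIP-2 was the lowest of its group for 32 of the 41 members (49.4% of all genes) and control array c for 38 of 41 (39.1% of all genes). Results that rest on S8 are given with and without it.

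The cells carried epithelial keratins in both lines. KRT8 and KRT18, keratins of simple epithelia, lay between 10.46 and 12.55 on all 12 arrays, while EPCAM and CDH1, an adhesion molecule and the cadherin of epithelial junctions, were lower in PANC-1 than in SW1990, with differences of -3.88 and -4.17. Of 7 epithelial markers, 6 were lower in PANC-1 and none was higher, against 26.2% and 23.1% of all genes. The fibroblast markers DCN, LUM, PDGFRA, POSTN and FAP lay between 3.08 and 4.56 on all arrays. Within that range, FAP was at 4.24 to 4.42 in the SW1990 control arrays and at 3.53 to 3.59 in those labelled GLI1. LUM was called higher in PANC-1, by 0.27. The other markers of that list lay higher. PDGFRB, THY1 and RGS5 lay between 6.245 and 6.79. FBLN1 lay between 7.21 and 7.51 in SW1990 and between 8.44 and 8.73 in PANC-1. ACTA2 lay between 8.45 and 8.79 in SW1990 and between 7.47 and 7.68 in PANC-1. Of the 10 markers of fibroblasts and stellate cells, 3 were higher and 4 lower in PANC-1, against 23.1% and 26.2% of all genes. The log2 of their summed signal ran from 9.71 to 9.89 in SW1990 and from 9.77 to 9.92 in PANC-1. That sum mixes probe sets of unlike brightness, and FBLN1 (1.18) and ACTA2 (-1.04) differed between the lines in opposite directions. It is therefore no measure of fibroblast content. PTPRC, the pan-leukocyte phosphatase, lay between 3.40 and 3.50 and LYZ between 3.52 and 3.79. The other leukocyte markers CD3E, CD79A, CD14 and CSF1R lay between 5.93 and 7.15. Of the 6, only CD14 was called between the lines, lower in PANC-1 at -0.29. Of 6 endothelial markers only KDR was called, at 5.21 to 5.86 in SW1990 and 6.79 to 8.21 in PANC-1. Over all genes 23.1% were higher and 26.2% lower, and which cells gave these signals was not tested.

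The largest collagen differences in the data lay between the lines, and nearly all of them were higher in PANC-1. With adjusted p under 0.05 from limma, the call used throughout, 16 of 41 members (39%) were higher in PANC-1, against 23.1% of all genes. Only COL10A1 and COL6A1 were higher in SW1990, that is 4.88% of members against 26.2% of all genes. At a difference of at least 2-fold, COL5A2, COL12A1, COL1A1 and COL18A1 (9.76% of members) were higher in PANC-1, against 4.06% of all genes, and no member was higher in SW1990, against 3.44%. Estimates were above 0 for 38 of 41 members, with a median of 0.09 against 0.01 over all genes. The share of all genes above 0 was not counted. SW1990 arrays LIP-2 and c were the lowest of their groups for 32 and 38 of the 41 members, so these estimates are not 38 separate results. Left out in turn, they gave 14 and 15 members higher in PANC-1, and their part in the small estimates was not tested. In PANC-1, LIP-2 and S8 were the highest of their groups for 27 and 24 members (39.9% and 42.4% of all genes). The PANC-1 array LIP was the lowest of its group for 20 (42.3% of all genes). Without LIP-2 or S8 of PANC-1, 15 and 16 members were higher in PANC-1, and the part of these arrays was not tested either. More cells with a transcript and more of it per cell cannot be told apart in RNA of whole cultures.

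**Figure D1:**
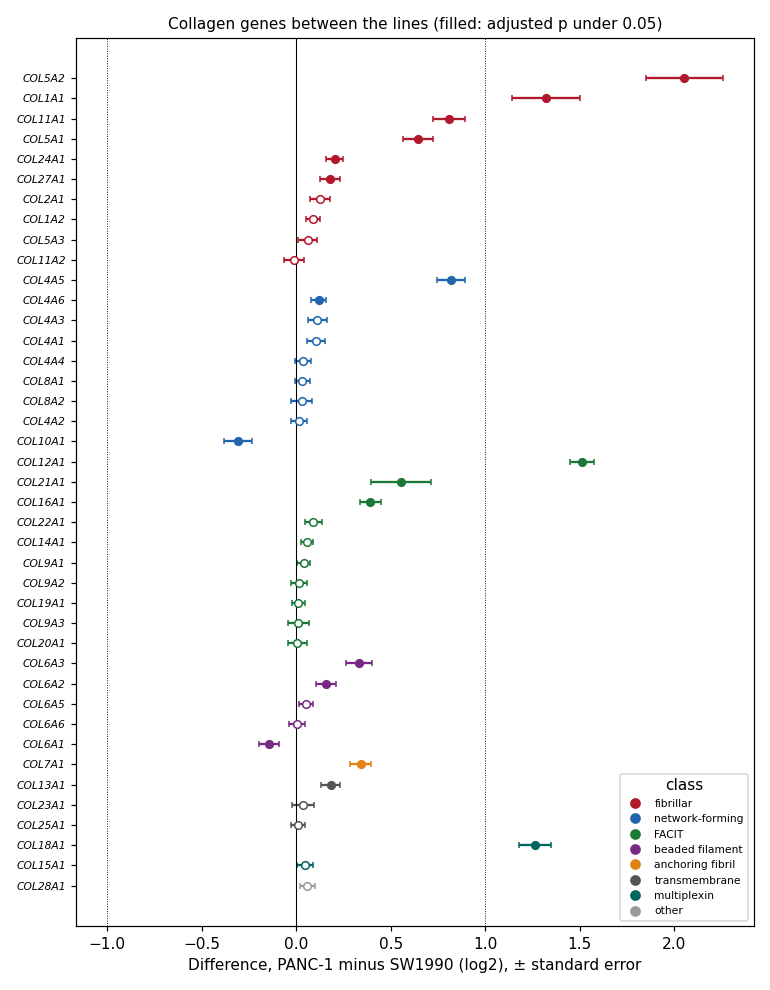
Difference between PANC-1 and SW1990 (log2, mean over both labels) for the 41 collagen genes by structural class. Bars are standard errors, filled points have adjusted p under 0.05 and dotted lines mark a 2-fold difference, which COL5A2, COL12A1, COL1A1 and COL18A1 exceed.

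Of the fibrillar collagens, 6 of 10 measured members were higher in PANC-1 and none was lower, against 23.1% and 26.2% of all genes. COL5A2, a chain of the type V collagen that starts fibrils and limits their width, was at 6.45, 6.34 and 6.25 in the SW1990 arrays labelled GLI1 (LIP, LIP-1, LIP-2) and at 6.59, 6.49 and 6.51 in those labelled control (a, b, c). In PANC-1 it was at 8.20, 9.03 and 9.04 in the arrays labelled GLI1 and at 7.80, 7.89 and 8.97 in S10, S11 and S8. Every PANC-1 array lay above every SW1990 array, and S8 sat with LIP-1 and LIP-2 rather than with S10 and S11. The line difference was 2.05 (standard error 0.20, 4.15-fold, adjusted p = 4.79e-06 from limma) with all arrays and 1.87 (standard error 0.14) without S8.

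COL1A1, the major chain of type I collagen in bone, skin and tumour stroma, was at 7.76, 7.70 and 7.62 in the SW1990 arrays labelled GLI1 and at 7.72, 7.72 and 7.58 in the control-labelled ones. In PANC-1 it was at 9.18, 9.63 and 9.67 with the GLI1 label and at 8.12, 8.15 and 9.28 in S10, S11 and S8. The lines did not overlap, and the gap was narrowest between S10 of PANC-1 and LIP of SW1990. The line difference was 1.32 (standard error 0.18, 2.50-fold, adjusted p = 6.65e-05 from limma), 0.85 among the control-labelled arrays and 1.80 among those labelled GLI1. COL1A2, which contributes the other chain of type I collagen, was not called. It lay between 5.94 and 6.09 in SW1990 and between 6.05 and 6.21 in PANC-1, a difference of 0.09 (95% interval 0.01 to 0.17, adjusted p = 0.068 from limma).

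Among the other fibrillar members, COL11A1, a minor chain of cartilage fibrils, lay between 5.85 and 6.09 in SW1990 and between 6.45 and 7.05 in PANC-1, a difference of 0.81 (standard error 0.08). COL5A1, the partner of COL5A2 in type V collagen, differed by 0.64 (standard error 0.08), from 6.96 to 7.29 in SW1990 and from 7.59 to 8.08 in PANC-1. COL5A3, the chain that joins them in some tissues, gave 0.06 (standard error 0.05) and was not called. COL24A1 and COL27A1, fibrillar chains of developing bone and cartilage, differed by 0.20 and 0.18. COL2A1, the main cartilage collagen, and COL11A2, which assembles with COL11A1, gave 0.13 and -0.01 and were not called.

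Of the 10 FACITs, 3 were higher in PANC-1, near the 23.1% of all genes, and none was lower, against 26.2%. COL12A1, a FACIT of tendon, ligament and reactive stroma, was at 4.88, 5.03 and 4.90 in the SW1990 arrays labelled GLI1 and at 4.95, 4.98 and 5.02 in the control-labelled arrays. In PANC-1 it was at 5.92, 6.33 and 6.17 with the GLI1 label and at 6.74, 6.85 and 6.82 in S10, S11 and S8. Every PANC-1 array lay above every SW1990 array, and here S8 lay with S10 and S11. The line difference was 1.51 (standard error 0.06, 2.85-fold, adjusted p = 3.18e-09 from limma), and 1.51 without S8 as well. COL12A1 nevertheless lay in the lowest 30% of signal over all arrays.

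COL16A1, a FACIT of skin and cartilage, differed by 0.39 (standard error 0.06) with no overlap between the lines. COL21A1, found in vessel walls, differed by 0.55 (standard error 0.16), and its spread lay in PANC-1. It was at 4.65 to 4.77 in SW1990, at 4.81 and 4.82 in S10 and S11, at 5.67 in S8 and at 5.00, 5.60 and 5.73 with the GLI1 label. The type IX chains COL9A1, COL9A2 and COL9A3, which decorate cartilage fibrils, gave 0.04, 0.02 and 0.01 and were not called. COL14A1, COL19A1, COL20A1 and COL22A1 gave between 0.00 and 0.09 and were not called either.

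COL18A1, a multiplexin of basement membranes from which endostatin is cut, was at 8.22, 8.23 and 8.02 in the SW1990 arrays labelled GLI1 and at 8.29, 8.33 and 7.90 in those labelled control. In PANC-1 it was at 9.56, 9.60 and 9.69 with the GLI1 label and at 9.13, 9.14 and 9.44 in S10, S11 and S8. No PANC-1 array came near the SW1990 range. The line difference was 1.27 (standard error 0.08, 2.40-fold, adjusted p = 1.70e-07 from limma), and 1.21 without S8. COL15A1, the other multiplexin, gave 0.05 (standard error 0.04) and was not called. The COL18A1 probe set does not separate the transcripts from the 2 starts printed above.

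**Figure D2:**
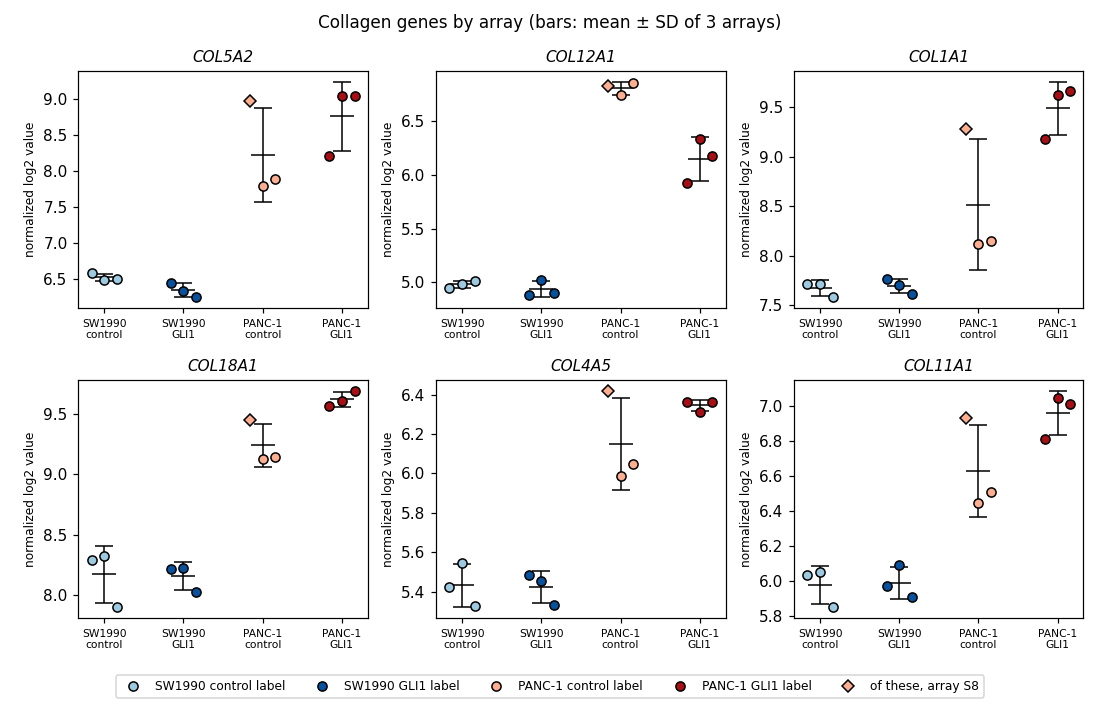
Normalized log2 value of 6 collagen genes on each of the 12 arrays by line and label, with horizontal bars at the mean ± SD of 3 arrays and a diamond for PANC-1 control array S8. S8 lies with the GLI1-labelled arrays for COL5A2, COL1A1, COL4A5 and COL11A1, and with the other control arrays for COL12A1.

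Of the basement membrane type IV chains, COL4A5 and COL4A6 were called and COL4A1 to COL4A4 were not. The COL4A6 estimate (0.12) was nonetheless near those of COL4A1 (0.10) and COL4A3 (0.11). COL4A1 and COL4A2, the chains of nearly every basement membrane, gave 0.10 (95% interval -0.0019 to 0.21) and 0.01 (95% interval -0.07 to 0.10) and were not called. COL4A3 and COL4A4, chains of the kidney and lung, gave 0.11 and 0.03 and were not called. COL4A5, whose loss causes X-linked Alport syndrome, lay between 5.33 and 5.55 in SW1990 and between 5.99 and 6.42 in PANC-1, a difference of 0.82 (standard error 0.07, 1.76-fold, adjusted p = 1.87e-06 from limma). Its head-to-head neighbour COL4A6, a chain of smooth muscle and some epithelia, differed by only 0.12 (standard error 0.04, adjusted p = 0.026 from limma), from 5.36 to 5.51 in SW1990 and from 5.54 to 5.59 in PANC-1. Both genes, whose windows share bases at the COL4A6 start printed above, lay in the lowest 30% of signal, and whether their line differences are unequal was not tested. The other network-forming members were COL8A1 and COL8A2, chains of the corneal Descemet membrane, at 0.03 each and not called, and COL10A1, a marker of hypertrophic cartilage, which was lower in PANC-1 at -0.31 (standard error 0.07, adjusted p = 0.004 from limma). COL10A1 lay between 4.35 and 4.82 in SW1990 and between 4.17 and 4.48 in PANC-1, an overlap, and is also a gene of low signal.

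The type VI chains, which form beaded microfilaments around cells, did not share a direction. COL6A1 was lower in PANC-1 at -0.14 (standard error 0.05, adjusted p = 0.045 from limma) while COL6A2 and COL6A3 were higher by 0.16 (standard error 0.05) and 0.33 (standard error 0.07), and COL6A5 and COL6A6 gave 0.05 and 0.00 and were not called. COL6A1 lay between 7.85 and 8.03 in SW1990 and between 7.74 and 7.97 in PANC-1, and the lines overlapped for it and for COL6A3. COL6A2 lay between 7.63 and 7.91 in SW1990 and between 7.92 and 8.04 in PANC-1, with no overlap. COL7A1, the collagen of anchoring fibrils under stratified epithelia, was higher in PANC-1 by 0.34 (standard error 0.06). COL13A1, a transmembrane collagen of cell junctions with the matrix, was higher by 0.18 (standard error 0.05), and the other transmembrane members COL23A1 and COL25A1 gave 0.04 and 0.01. COL28A1, found around nerve fibres, gave 0.06. All PANC-1 arrays and all SW1990 arrays were disjoint for 15 of the 41 members (36.6%) and for 29% of all genes.

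The label effect asks how collagen genes differed between arrays labelled GLI1 and control within a line. In SW1990 it was not detected by test. No member was higher or lower with the GLI1 label, against 9.3% and 9.62% of all genes, and at an unadjusted p under 0.05 from limma the count was 0 as well, and it was also 0 by the methods' t-test. Estimates ran from -0.18 for COL5A2 to 0.08 for COL1A2, with a median of -0.01 against 0.01 over all genes. For these 2 genes the labels did not overlap. COL5A2 was at 6.25 to 6.45 with the GLI1 label and 6.49 to 6.59 with the control label, COL1A2 at 6.07 to 6.09 and 5.94 to 6.04. The share of all genes without such overlap was not counted. The 95% intervals had a median half-width of 0.16 and reached at most from -0.81 (COL5A2) to 0.58 (COL1A1), so differences within these bounds cannot be told from 0. The wide bounds of these 2 genes carry the spread of the PANC-1 arrays, since each gene has a single spread over all 4 groups.

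**Figure D3:**
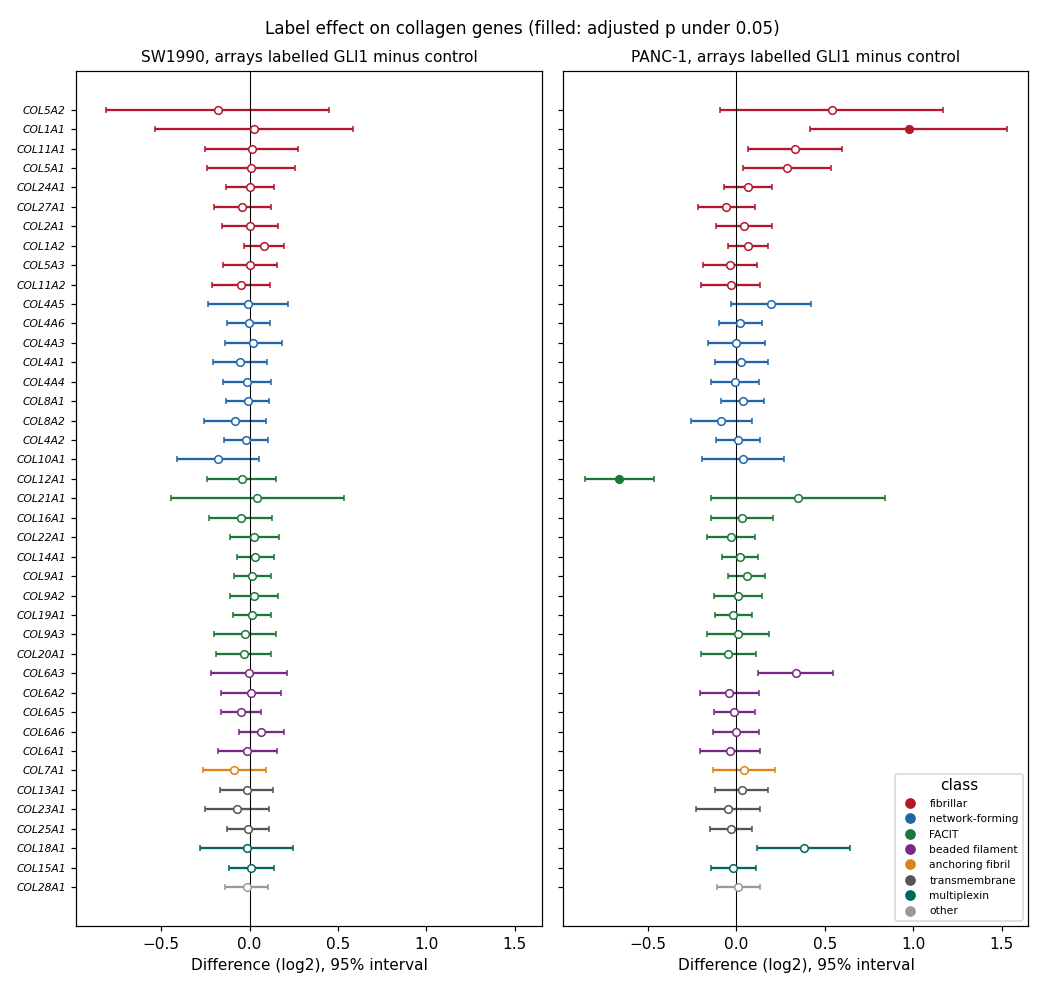
Arrays labelled GLI1 minus arrays labelled control (log2) in SW1990 and in PANC-1 for the 41 collagen genes by class, with 95% intervals from the fit of all 12 arrays. Filled points have adjusted p under 0.05, which in PANC-1 are COL1A1 and COL12A1 and in SW1990 are none.

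In PANC-1, COL1A1 was higher and COL12A1 lower in the arrays labelled GLI1, 1 of 41 members (2.44%) each way, against 4.39% and 5.25% of all genes. COL1A1 had means of 9.49 with the GLI1 label and 8.52 with the control label, a difference of 0.97 (standard error 0.25, 1.96-fold, adjusted p = 0.036 from limma). The groups overlapped, since S8 at 9.28 lay above LIP at 9.18. Leaving out each array in turn removed this call in 10 of 12 fits (adjusted p up to 0.151), the exceptions being PANC-1 array LIP and S8, and it was also lost when the 6 PANC-1 arrays were fitted alone (adjusted p = 0.200). COL12A1 had means of 6.14 and 6.80 and a difference of -0.66 (standard error 0.09, 1.58-fold lower, adjusted p = 0.002 from limma), and all 3 arrays labelled GLI1 lay below all 3 control arrays. It kept its call without each of the 12 arrays in turn, S8 included, and lost it with the 6 PANC-1 arrays alone (adjusted p = 0.062).

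Array S8 lay apart from S10 and S11 for most of the collagen genes that were higher in PANC-1. It was nearer to the mean of the arrays labelled GLI1 than to that of S10 and S11 for 13 of those 16 members, for 18 of the other 25 members and for 61.1% of all genes. Relative to the mean of S10 and S11, COL1A1 was at 1.14 in S8 and at 1.04, 1.49 and 1.53 in the arrays labelled GLI1. COL5A2 was at 1.13 in S8 and at 0.36, 1.19 and 1.19. COL21A1 was at 0.85 in S8 and at 0.18, 0.79 and 0.92. The 3 exceptions among the 16 were COL12A1, COL13A1 and COL4A6. COL12A1 was at 0.03 in S8 and at -0.87, -0.47 and -0.62 with the GLI1 label, whereas for COL13A1 S8 differed by -0.05 from the mean of S10 and S11 and by -0.065 from that of the arrays labelled GLI1, and for COL4A6 by -0.0025 and -0.02.

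**Figure D4:**
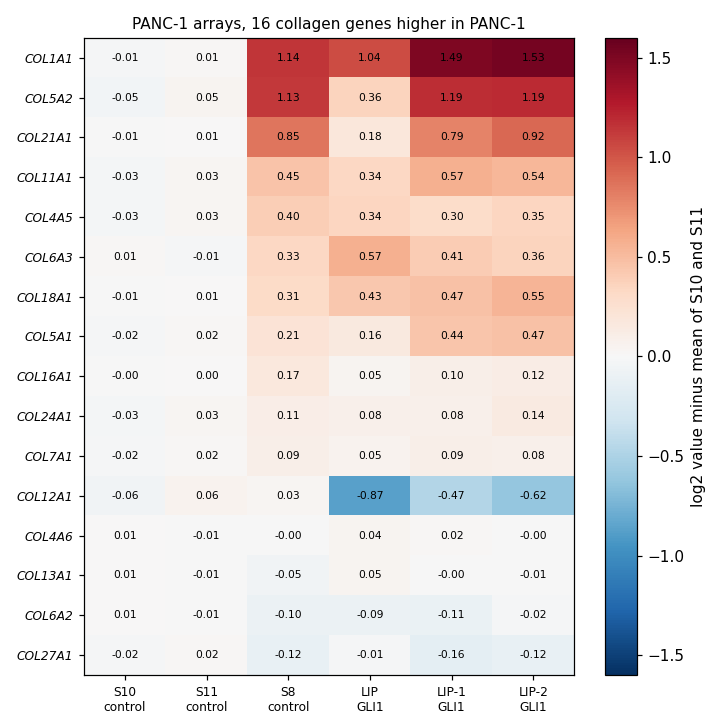
The 16 collagen genes higher in PANC-1 on the 6 PANC-1 arrays, as log2 value minus the mean of control arrays S10 and S11, which colour and printed number give. S8 follows the GLI1-labelled arrays for COL1A1, COL5A2 and COL21A1 but not for COL12A1.

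Without S8, 7 members were higher with the GLI1 label in PANC-1 against 13.3% of all genes, and COL12A1 alone was lower against 11%. COL1A1 then differed by 1.35 (standard error 0.12, adjusted p = 4.6e-05 from limma) and COL5A2 by 0.91 (standard error 0.20, adjusted p = 0.007). COL21A1, COL18A1 and COL11A1 differed by 0.63, 0.48 and 0.48, and COL6A3 and COL4A5 by 0.45 and 0.33. Of these 7, only COL1A1 was called with S8 included, while COL12A1 hardly moved, at -0.65. The 7 members are 17.1% of the 41, and S8 was left out after its position had been seen. S8 also differed from S10 and S11 in its interferon-stimulated genes and over the whole array, as given above, and the part of either in these values was not tested.

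The difference between the 2 label effects was called for COL12A1 alone (2.44% of members, against 2.39% of all genes). Its effect was -0.66 in PANC-1 and -0.04 in SW1990, a difference of -0.62 (standard error 0.13, adjusted p = 0.031 from limma). Leaving out each array in turn removed this call in 9 of 12 fits (adjusted p up to 0.086). COL1A1 had the largest estimate of this difference, 0.95 with a 95% interval from 0.16 to 1.74, and was not called (adjusted p = 0.209). Without S8, 6 members were called, against 15.2% of all genes, and COL1A1 at 1.33, COL5A2 at 1.09, COL11A1 at 0.47, COL6A3 at 0.45 and COL4A5 at 0.34 were among them beside COL12A1.

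Genes that make, cut, bind and degrade collagen were counted in lists chosen with earlier results of these data known. Over all genes, 23.1% were higher and 26.2% lower in PANC-1, and each list count of line differences below is to be read beside these shares. Of 19 measured genes of collagen folding and modification, 7 were higher and 2 lower in PANC-1. P3H2, a prolyl hydroxylase of type IV collagen, was at 5.68 to 5.92 in SW1990 and at 9.98 to 10.55 in PANC-1, a difference of 4.43 (standard error 0.10, 21.6-fold, adjusted p = 1.43e-11 from limma). FKBP10, a collagen chaperone of the endoplasmic reticulum, differed by 2.81, PLOD2, a lysyl hydroxylase that sets the type of crosslink, by 1.07, and FKBP14, a prolyl isomerase of the endoplasmic reticulum, by 0.67. Of 13 genes of propeptide cleavage and crosslinking, 6 were higher in PANC-1, among them the lysyl oxidase LOXL2 by 1.73 and PCOLCE2, an enhancer of propeptide removal, by 0.95. The propeptide-cutting enzyme BMP1 and the lysyl oxidase LOXL3 were among the 3 that were lower in PANC-1, at -0.41 and -0.48.

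Collagen receptors split, with 4 of 9 higher and 2 lower in PANC-1. ITGB1, the common beta chain of collagen-binding integrins, the collagen uptake receptor MRC2 and the collagen-sensing kinase DDR2 were higher by 1.05, 1.42 and 0.51. The collagen-binding alpha chains went both ways. ITGA1, in the lowest 30% of signal, was lower, at -1.09, and ITGA2 was higher by 1.14 (standard error 0.15). Of 9 collagenases, other collagen-degrading enzymes and inhibitors, 3 were higher and 4 lower. MMP1, an interstitial collagenase, was at 4.30 to 4.66 in SW1990 and at 5.86 to 9.11 in PANC-1, with the lowest PANC-1 value in S8, and differed by 3.21 (standard error 0.48). MMP2, which degrades type IV collagen, differed by 2.23, while the inhibitor TIMP3 and the cathepsin CTSK were lower in PANC-1, at -1.67 and -0.60. Of 11 laminins and other basement membrane genes, 7 were higher and 2 lower. NID1, which links laminin to type IV collagen, differed by 3.48 (standard error 0.26), the laminin chains LAMB1 and LAMC1 by 0.96 and 0.72, and the proteoglycan AGRN was lower, at -0.94.

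In SW1990, 3 of 19 genes of folding and modification were higher and 2 lower with the GLI1 label. Of 13 genes of propeptide cleavage and crosslinking 1 was higher, of 9 receptors 1 was lower and of 9 collagenases and inhibitors 2 were lower. None of 11 basement membrane genes was called. Over all genes, 9.3% were higher and 9.62% lower. FKBP14 was at 8.52, 8.47 and 8.21 with the GLI1 label and at 9.24, 9.12 and 9.19 with the control label, a difference of -0.78 (standard error 0.10, adjusted p = 4.1e-04 from limma). MIA3, which loads collagen into vesicles for export, was lower at -0.46, and so were MMP13 and CTSK, which degrade collagen, at -0.81 and -0.55. ADAMTS14, a propeptide-cutting enzyme, was higher by 0.41. These 5 kept their calls without each array in turn. PLOD3 and PLOD2, lysyl hydroxylases, were higher by 0.20 and 0.49 and DDR2 lower at -0.27, and they lost their calls in 3, 9 and 9 of the 12 fits that left out an array. CRTAP, also of the folding list, was higher by 0.27 (adjusted p = 0.049 from limma), and its call was not tested with arrays left out.

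In PANC-1, P4HA1 and P4HA2, catalytic chains of collagen prolyl hydroxylase, were higher with the GLI1 label, while the catalytic chain P4HA3 gave 0.12 (95% interval -0.11 to 0.36) and was not called. P4HA1 was at 10.61, 10.65 and 10.78 with that label and at 9.30, 9.37 and 10.30 in S10, S11 and S8, a difference of 1.02 (standard error 0.21, adjusted p = 0.014 from limma), which lost its call without LIP-2, S10 or S11. P4HA2 was at 8.86, 8.77 and 8.91 against 7.94, 8.06 and 8.45, a difference of 0.70 (standard error 0.11), and LOXL2 was higher by 0.56 (standard error 0.11), and both kept their calls without each array. The methods' t-test after Benjamini-Hochberg adjustment called no gene for the PANC-1 label, these included. In P4HA1, P4HA2 and LOXL2, S8 was the highest control array and lay below every array labelled GLI1. P3H4 and FKBP10 were higher by 0.29 and 0.27 and lost their calls in 11 and 10 of the 12 fits. These are 4 of 19 genes of folding and modification and 1 of 13 of propeptide cleavage and crosslinking higher with the GLI1 label in PANC-1. No gene of these 2 lists was lower, and no receptor, collagenase or basement membrane gene of the lists was called there. Over all genes, 4.39% were higher and 5.25% lower with that label. The label effects of FKBP14, MIA3 and MMP13 differed between the lines, by 1.10 (adjusted p = 0.003), 0.44 (adjusted p = 0.033) and 0.75 (adjusted p = 0.026) from limma, PANC-1 minus SW1990, and leaving out an array removed the call of FKBP14 in none, of MIA3 in 9 and of MMP13 in 8 of 12 fits.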

How the data were processed

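The authors deposited background-corrected, normalized log2 values for 70523 probe sets per array, by tools not given in the sources used here. Their methods describe Agilent slides with Cyanine-3 and a mirVana extraction, whereas according to the labels RNA was extracted with Trizol and carried biotin, and the probe set names belong to an Affymetrix transcriptome array. All 12 arrays were used, each tied to its group by its labels, with no column left unused. Array medians ran from 5.86 to 6.00, so quantile normalization was applied.

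Of the probe sets, 23781 carried 1 symbol, 1543 several and 45199 none, and symbols were updated to RefSeq. The members and lists were chosen with earlier results of these data known. Group means of line and label were fitted in R 4.3.3 by limma 3.58.1 (lmFit, eBayes), with 8 residual degrees of freedom and Benjamini-Hochberg adjustment over 22411 genes, and the steps were tested on simulated data. The line difference weights both labels equally. Named were all members, chains that assemble together side by side, and from each accessory list up to 4 genes per comparison with the smallest adjusted p. P4HA3 and ITGA2 were added beside related genes of their lists, and CRTAP as the remaining called gene of its list in SW1990. Genes at or below background could not be told from the files, so 30% of lowest signal stands in for that filter. Alternatives were other scalings, probe set rules, filters, thresholds, tests and arrays left out. Arrays have no counterpart of depth, and their number limits the precision. Plots used Python 3.11.15, pandas 2.3.3 and matplotlib 3.10.9.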

Additional observations from a re-analysis of the deposited data

Results flagged for a closer look

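The effect of the label differed between the lines by the test of that difference for 1 collagen gene, 3 accessory genes and GLI1 itself, each given as PANC-1 minus SW1990 on the log2 scale. COL12A1 gave -0.62 (adjusted p = 0.031 from limma), with label effects of -0.66 in PANC-1 and -0.04 in SW1990. FKBP14 gave 1.10, from label effects of -0.78 in SW1990 and 0.32 in PANC-1, the latter not called (adjusted p = 0.071). MIA3 gave 0.44 and MMP13 gave 0.75, both with a label effect called in SW1990. GLI1 gave 1.35, from -4.92 in SW1990 and -3.57 in PANC-1, against its labels in both lines. Outlying arrays within groups were not tested, since every group holds 3.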

How the results depend on the processing

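No direction turned in 976 alternative values for 43 pairs of gene and comparison, of which 852 kept their call and 124 lost it. The 4 collagen genes at least 2-fold higher in PANC-1 kept that call under each alternative run except that the count was 3 without the 30% of genes of lowest signal, which removes COL12A1, and 3 with only the arrays labelled control, where COL1A1 stood at 0.85. The count higher in PANC-1 (16) was 10 without the 30% of lowest signal, which removes the other 6, and 8 with only the arrays labelled control, and ran from 14 to 17 when each array was left out. The count higher in SW1990 (2) was 1 with arrays centred on the median, without the 30% of lowest signal, at adjusted p under 0.01 and with only the arrays labelled control, was 0 with only those labelled GLI1, and ran from 1 to 2 when each array was left out. The names LIP, LIP-1 and LIP-2 recur in both lines, but arrays of the same name did not deviate together (r = 0.11, 0.02 and 0.06). With the name as a replicate block the counts were 15 higher in PANC-1 and 1 in SW1990.
In PANC-1, the count higher with the GLI1 label (1) was 9 with array weights and 2 by the methods' t-test unadjusted. It was 0 at adjusted p under 0.01, by that test after Benjamini-Hochberg adjustment (where no gene of any kind was called) and with the 6 arrays of the line alone, and ran from 0 to 7 when each array was left out. The count lower (1) was 2 with array weights and 0 without the 30% of lowest signal, by that test after adjustment and with the 6 arrays alone. The count whose label effect differed between lines (1) was 10 with array weights and 0 without the 30% of lowest signal and at adjusted p under 0.01, and ran from 0 to 6 when each array was left out. Over all genes, array weights raised the calls for the PANC-1 label from 2160 to 9218 and for the difference between lines from 536 to 6039, and the 6 arrays alone gave 86 for the PANC-1 label. The cause of these changes was not tested.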
